A study of Mus musculus with 31 samples.

Results

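Loss of Sox9 in XY fetal mouse gonads was read from 8 of the 31 expression arrays of the series, taken by their titles: 4 of XY gonads without Sox9 (XY Sox9KO) and 4 of XY control gonads (XY Ctr), all at embryonic day 14.5. Every embryo of both groups carried the Sf1-cre transgene, which expresses Cre recombinase under Sf1 regulatory sequence in gonadal somatic cells, together with 1 floxed Ctnnb1 allele (Ctnnb1+/f), so the controls are not wild type. The controls were Sox9+/f, with 1 floxed Sox9 allele, and the knockouts Sox9f/f, so the comparison sets somatic loss of both alleles against loss of 1. Germ cells lie outside the stated somatic reach of the deletion. Each array held RNA of 1 pair of gonads freed from the mesonephros, with 40 ng of total RNA amplified before labelling. A further 3 comparisons place the effect: the same genotypes in XX gonads (XX Ctr and XX Sox9KO, 4 arrays each), XY Sox9KO against XX Ctr, and Sox9 loss in XY gonads with both Ctnnb1 alleles floxed (XY Ctnnb1KO, Ctnnb1f/f; Sox9+/f, 4 arrays, and XY DKO, Ctnnb1f/f; Sox9f/f, 3 arrays). How many cells Cre had acted in is not stated.

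SOX9 is a transcription factor that SRY switches on in the supporting cells of the XY gonad, where it drives Sertoli cell differentiation. Sertoli cells enclose the germ cells in testis cords, secrete anti-Müllerian hormone, and send hedgehog and other signals that bring interstitial cells to the fetal Leydig cell fate. In the XX gonad, RSPO1, WNT4 and beta-catenin, the product of Ctnnb1, act with FOXL2 in the supporting cells, which become pregranulosa cells. Germ cells in a fetal ovary enter meiosis in response to retinoic acid and other signals, while those in a fetal testis are shielded from it and stop dividing.

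Values are MAS5 signal, a linear brightness per probe set with no unit, and the strongest probe set of a gene stands for it. Median signal per array ran from 136.7 to 167.8 over the 8 arrays, and replicates correlated at 0.9756 to 0.9836 over all probe sets other than controls. Signals far below those medians are close to background. Differences are XY Sox9KO minus XY Ctr in log2(signal + 16), ± SE, 4 against 4 arrays unless stated, and a gene was called at a limma adjusted p under 0.05. Of 11779 genes tested, 4558 were called (38.7%), 2675 higher (22.7%) and 1883 lower (16%) in XY Sox9KO, and 523 and 495 of these differed at least 2-fold. The 4 knockout and 4 control arrays did not overlap for 4159 genes (35.3%). The median difference over all genes tested was 0.05 and the median size 0.24. With background that wide, each list of genes below is described by its counts and not tested as a list, and a gene silent in 1 group entered the tested set through the other.

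**Figure D1:**
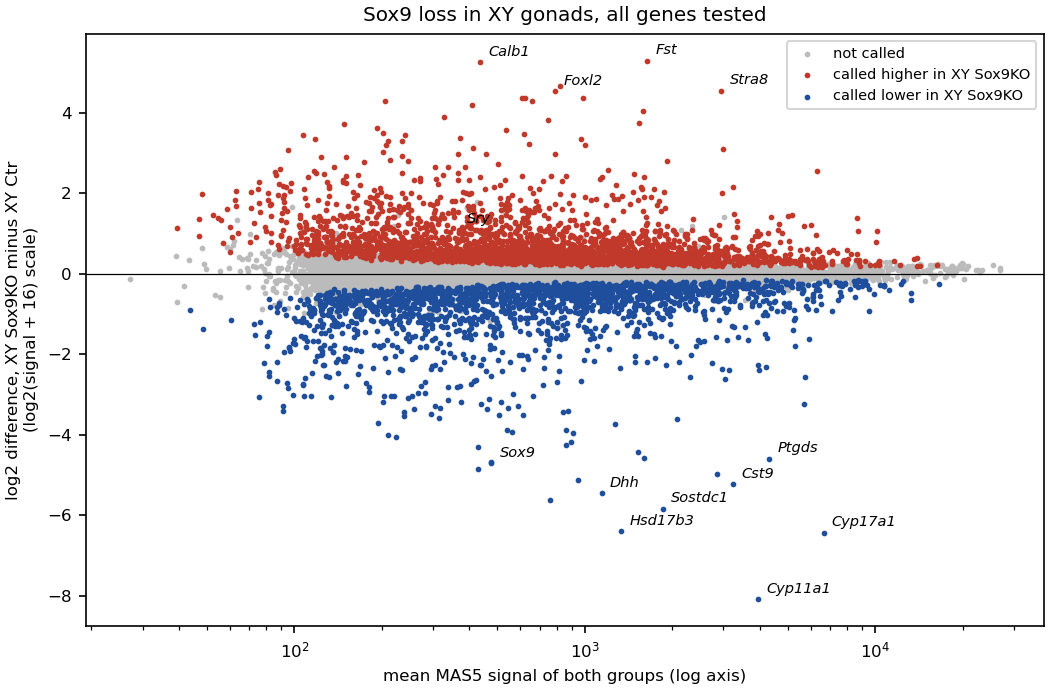
Each point is 1 of 11779 genes tested, with its mean MAS5 signal over both groups on a log axis and its log2 difference on the vertical axis. Red points were called higher and blue points lower in XY Sox9KO, and the differences of Cyp11a1 and Cyp17a1 lie farther from 0 on this scale than that of any gene called higher.

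The targeted gene separated the groups. Sox9 signal was 857, 840.0, 1025 and 995 in XY Ctr and 7.14, 32.3, 10.8 and 41.7 in XY Sox9KO, with no overlap, a fall by 4.7 ± 0.44 (limma adjusted p = 3.35e-10). XX Ctr read 174, 11.7, 119 and 174. A weaker Sox9 probe set fell from 388.8 ± 39.3 to 58.4 ± 22.5 (SD, n = 4), and the third read 18.4 ± 9.2 and 7.6 ± 9.0, near background in both groups. Ctnnb1, floxed on 1 allele in both groups, read 12798 ± 470.0 in XY Ctr and 12887 ± 658 in XY Sox9KO (SD, n = 4), a difference of 0.01 ± 0.06 that was not called.

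Among SOX genes, which share a DNA-binding domain with SRY, Sox8 fell with Sox9. Sox8, which acts beside Sox9 in Sertoli cells, read 577, 601, 625 and 794 in XY Ctr and 81.2, 87.2, 61 and 87.6 in XY Sox9KO, a fall by 2.8 ± 0.18 (limma adjusted p = 7.36e-14). Sox10, the third gene of that subgroup, lay below the filter on low signal and was not tested. Its signals, singled out after they were seen, were 139, 178, 121 and 155 against 2.52, 1.98, 6.83 and 6.73. Every knockout array was thus below every control array for Sox8 as for Sox10. Of 20 SOX genes on the array 13 passed the filter, and 2 rose, 3 fell and 8 were not called (median -0.15). The share called, 38.5%, was near the 38.7% of all genes tested. Sox11 fell by 0.45 ± 0.09 and Sox5 rose by 0.56 ± 0.13, while Sox12 differed by 0.14 ± 0.10 and was not called.

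Sry, the Y-linked trigger of Sox9, was higher without Sox9. Its signal was 227, 252, 205 and 227 in XY Ctr and 551, 601, 467 and 419 in XY Sox9KO, with no overlap, and it rose by 1.1 ± 0.19 (limma adjusted p = 2.79e-05). XX Ctr gonads, which have no Y chromosome, read 223, 201, 191 and 281 on this probe set, so the XY Ctr arrays lay within the range of arrays that cannot hold the transcript. The other Sry probe set read 27.9, 55.7, 28.6 and 24.4 in XY Ctr and 66.8, 57.8, 51.7 and 58.0 in XY Sox9KO. There XY Ctr replicate 2 came close to the knockouts. The other Y-linked genes serve as a check of karyotype: Eif2s3y, Kdm5d and Uty differed by -0.09 ± 0.19, -0.14 ± 0.23 and -0.19 ± 0.23 and were not called. Uba1y, a ubiquitin-activating enzyme gene, rose by 0.86 ± 0.25 (limma adjusted p = 0.00694), from 1520, 1554, 2017 and 1306 to 2701, 2528, 3018 and 3315, without overlap. With a pseudocount of 1 its difference was again 0.86, but the call was lost (limma adjusted p = 0.225). Of the 10 genes tested of a list of Y-linked and X-inactivation genes 3 rose, 1 fell and 6 were not called (median -0.11). Thus 40% were called, beside 38.7% of all genes tested.

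Most Sertoli cell and testis cord genes fell. Of 30 genes listed, 27 were on the array and 24 passed the filter. Of these 19 fell, 2 rose and 3 were not called, with a median of -2.59 against 0.05 over all genes tested. Dhh, the hedgehog ligand of Sertoli cells, read 2269, 2313, 2394 and 2015 in XY Ctr and 27.2, 41.7, 27.5 and 48.7 in XY Sox9KO, a fall by 5.46 ± 0.17. Ptgds, which makes prostaglandin D2, read 7613, 9073, 9356 and 7096 against 269, 266, 282 and 554, a fall by 4.59 ± 0.22, and replicate 4 of the knockouts stood above its group. Cst9, a cystatin gene of fetal Sertoli cells, read 5597, 6907, 5913 and 6843 against 141, 162, 202 and 119, a fall by 5.22 ± 0.14 (limma adjusted p = 1.2e-22). Knockout and control arrays did not overlap for any of these genes. XX Ctr read 142, 162, 172 and 182 for Cst9, which overlaps the knockouts.

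The promoter window of Cst9 is shown because it was the only one among the Sertoli cell genes with a match to the SOX core motif. The search used the letters AACAAAG on both strands in the 250 bases before gene starts of RefSeq windows (build GRCm38.p6). Of the 24 genes 14 have such a window and 1 matched, against 5.03% of 32851 windows of all genes. A gene counted as matched if any of its windows did, so genes and windows are not counted on the same basis. The 130 bases printed lie before the gene start on the plus strand at chr2:148834935-148835064, 5′ to 3′, with the motif in capitals as its reverse complement, starting 152 bases before the gene start. A match is a stretch of letters and shows no binding.
Cst9: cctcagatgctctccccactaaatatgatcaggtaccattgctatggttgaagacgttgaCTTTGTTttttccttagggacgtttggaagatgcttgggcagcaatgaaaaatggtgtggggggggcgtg

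Other members of the list covered secreted products, enzymes and structural proteins. Defb19, a beta-defensin gene, read 8966, 10647, 11129 and 10245 against 971, 1065, 1164 and 1089, a fall by 3.24 ± 0.11 that still left it at 971 or more in every knockout array. Amh, the hormone that makes the Müllerian ducts regress, read 211, 207, 234 and 206 in XY Ctr and 6.95, 11.5, 20.2 and 11.2 in XY Sox9KO, a fall by 3.04 ± 0.38 (limma adjusted p = 1.12e-07). Tesc, a calcium-binding protein gene, fell by 3.96 ± 0.16, Col9a3, a collagen IX chain, by 3.4 ± 0.22, Trim47 by 2.97 ± 0.15 and Aard by 2.38 ± 0.13. Fgf9, a growth factor that upholds Sox9, fell by 0.83 ± 0.18 and was named after its values were seen.

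Some genes expressed in Sertoli cells did not follow. Dmrt1, a transcription factor that keeps the male fate after birth, read 706, 867, 710.0 and 695 in XY Ctr and 648, 677, 448 and 730.0 in XY Sox9KO, with overlapping arrays and a difference of -0.26 ± 0.30. Gata4, a factor of all gonadal somatic cells, differed by -0.06 ± 0.11, and neither was called. Nr0b1, an orphan nuclear receptor gene also called Dax1, rose by 0.79 ± 0.12, from 235 ± 16.9 to 417 ± 21.5 (SD, n = 4).

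**Figure D2:**
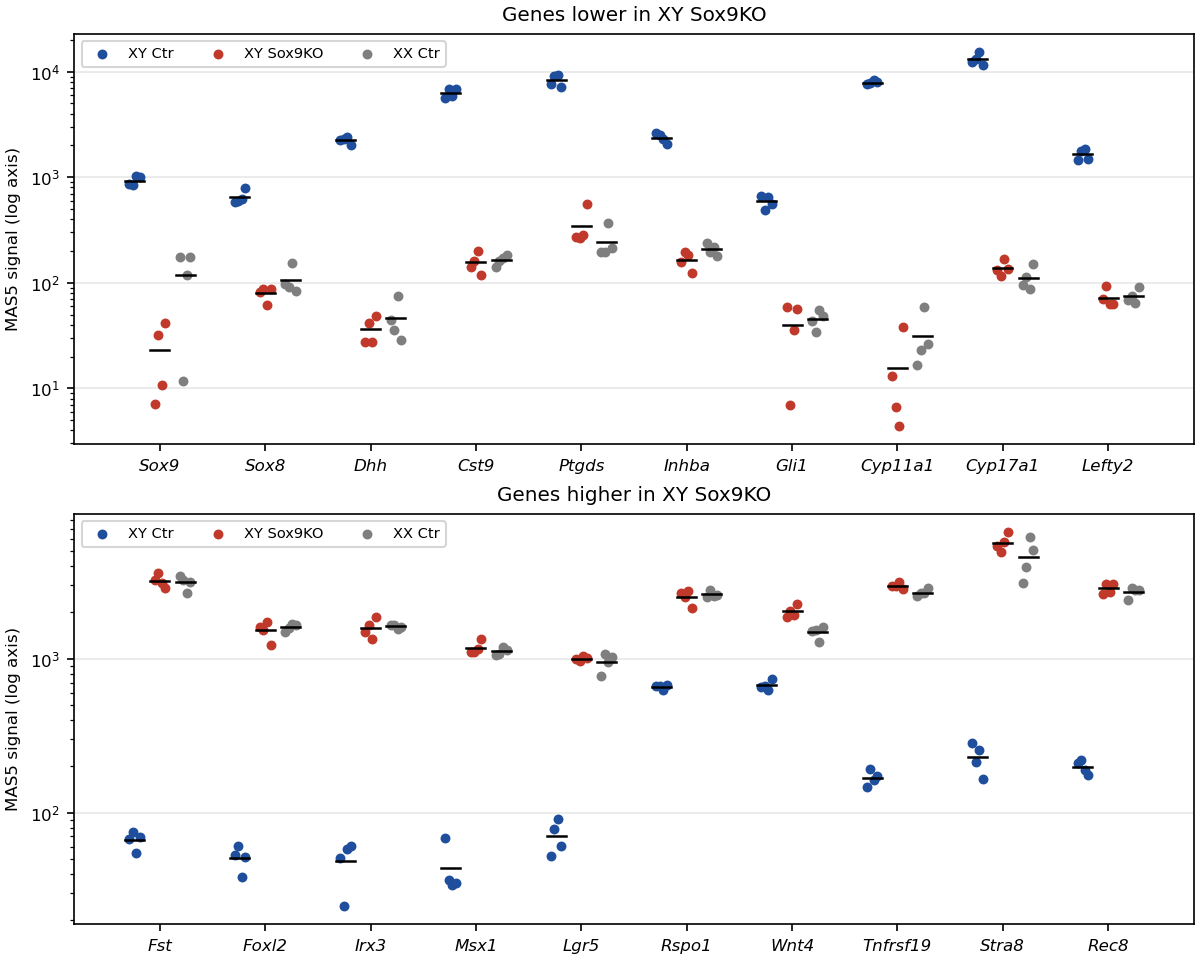
Points are MAS5 signals on a log axis for each of 4 arrays of XY Ctr (blue), XY Sox9KO (red) and XX Ctr (grey), and black lines are group means. For all 20 genes the XY Sox9KO arrays lie apart from the XY Ctr arrays, and Fst moves from a mean of 66.4 to 3209 beside 3142 in XX Ctr.

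The activin and inhibin genes fell while their antagonist rose. Inhba, the beta A chain of activin A and inhibin A, read 2614, 2490, 2290 and 2080 in XY Ctr and 157, 196, 182 and 125 in XY Sox9KO, a fall by 3.73 ± 0.15 (limma adjusted p = 8.15e-19). Inha, the alpha chain shared by the inhibins, read 3130, 2657, 2741 and 2798 against 573, 631, 754 and 679, a fall by 2.08 ± 0.12. Fst, encoding follistatin, which binds and blocks activin, read 67.5, 74.3, 54.6 and 69 against 3243, 3608, 3121 and 2866, a rise by 5.29 ± 0.13 (limma adjusted p = 3.06e-24). XX Ctr read 3456, 3270, 2696 and 3144, within and around the range of the knockouts. Among receptors, Amhr2, the receptor of anti-Müllerian hormone, rose by 1.21 ± 0.13 with Amh itself low, Tgfbr3, a co-receptor for inhibin, fell by 1.0 ± 0.12, and the activin receptor genes Acvr2a and Acvr2b differed by 0.19 ± 0.09 and 0.18 ± 0.13 without a call. The BMP ligand genes moved apart: Bmp2 rose by 2.33 ± 0.14 and Bmp4 fell by 1.42 ± 0.19. Of the 25 genes of the activin, inhibin, AMH and BMP list, all of which passed the filter, 5 rose, 11 fell and 9 were not called (median -0.09).

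Most pregranulosa and ovary genes rose. Of 26 listed genes 23 were on the array and 20 passed the filter, of which 16 rose, 2 fell and 2 were not called (median 1.94). Foxl2, the transcription factor of granulosa cells, read 53.4, 60.8, 38.4 and 51.2 in XY Ctr and 1621, 1530, 1745 and 1225 in XY Sox9KO, a rise by 4.53 ± 0.15 (limma adjusted p = 2.82e-20). XX Ctr read 1500, 1577, 1693 and 1670, so the knockout arrays reached the ovarian range except replicate 4, which lay below it. The homeobox genes Irx3 and Msx1 rose by 4.66 ± 0.17 and 4.36 ± 0.16, with Irx3 at 1500, 1648, 1335 and 1869 in the knockouts, Msx1 at 1103, 1104, 1150 and 1340, and no control above 68.5 for either. Runx1, a factor of fetal supporting cells, read 177, 200.0, 153 and 205 against 2242, 1714, 1784 and 1546, a rise by 3.19 ± 0.15. Kctd14 rose by 1.39 ± 0.08 and Cdkn1b, a cell cycle inhibitor, by 1.49 ± 0.11.

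The list was not uniform. Aldh1a1, a retinaldehyde dehydrogenase listed with the ovary, fell by 0.88 ± 0.07, from 7603 ± 251 to 4146 ± 353 (SD, n = 4). Lhx9, a transcription factor of early gonadal cells, differed by -0.02 ± 0.12 and was not called. Among factors of the early gonad before sex is decided, Wt1 rose by 0.57 ± 0.12 and was named after its values were seen, Emx2 rose by 1.07 ± 0.14 and Nr5a1, which encodes SF1, fell by 0.74 ± 0.10, while Cbx2, a Polycomb gene upstream of Sry, differed by -0.13 ± 0.12 without a call. Of 22 such genes that passed the filter 8 rose, 5 fell and 9 were not called (median -0.04).

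WNT pathway genes moved in both directions. The agonists of the ovary rose: Rspo1 read 661, 663, 624 and 678 in XY Ctr and 2697, 2513, 2778 and 2151 in XY Sox9KO, a rise by 1.92 ± 0.10, and Wnt4 read 659, 669, 627 and 744 against 1872, 2056, 1931 and 2278, a rise by 1.57 ± 0.11. The 4 knockout arrays lay above every control array for both. Lgr5, a receptor for R-spondins, rose by 3.58 ± 0.16, from 51.9, 78.3, 91.2 and 60.6 to 990.0, 973, 1039 and 1007, and Rnf43, a ubiquitin ligase that removes WNT receptors, by 2.28 ± 0.23. Wnt9a rose by 1.58 ± 0.15. Secreted inhibitors and other ligands fell: Sostdc1, an antagonist of WNT and BMP signals, read 4054, 3290, 3502 and 3760 in XY Ctr and 38.1, 40.5, 47.2 and 71.3 in XY Sox9KO, a fall by 5.83 ± 0.26 (limma adjusted p = 1.38e-17). Dkk1 and Dkk3 fell by 1.85 ± 0.27 and 1.52 ± 0.16, and Wnt5a by 1.57 ± 0.14. Of 27 WNT ligand, receptor and inhibitor genes that passed the filter 8 rose, 10 fell and 9 were not called (median -0.08).

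Genes known as direct outputs of beta-catenin mostly rose, with 11 higher, 4 lower and 1 not called of 16 that passed the filter (median 0.86). Tnfrsf19, a receptor gene of the TNF family, read 146, 193, 162 and 172 in XY Ctr and 2990, 2992, 3145 and 2832 in XY Sox9KO, a rise by 4.03 ± 0.09 (limma adjusted p = 1.46e-24). Axin2, a feedback inhibitor of the pathway, read 789, 515, 597 and 634 against 1626, 1569, 1480 and 1480, a rise by 1.27 ± 0.12. Sp5, a zinc finger gene, rose by 2.4 ± 0.31, Cd44, a surface receptor, by 2.66 ± 0.18, Nkd1, another feedback inhibitor, by 1.05 ± 0.13 and Ccnd1, cyclin D1, by 0.67 ± 0.10. Znrf3, a ubiquitin ligase related to Rnf43, differed by 0.11 ± 0.09 and was not called. Dkk1 and Bmp4, counted above, were among the 4 that fell.

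The promoter windows of Sp5 and Tnfrsf19 are shown because they were the only ones of this list with a match to the TCF/LEF motif, the DNA element through which beta-catenin acts. The letters were CTTTGAT, on both strands in the same RefSeq windows. Of the 16 genes 12 have a window and 2 matched, against 3.21% of all windows, with genes again set beside windows. Capitals mark the motif, which starts 104 bases before the Sp5 gene start and, as its reverse complement, 202 bases before that of Tnfrsf19. Each stretch of 130 bases is 5′ to 3′ on the strand of the gene (GRCm38.p6), chr2:70474759-70474888 on the plus strand for Sp5 and chr14:61038108-61038237 on the minus strand for Tnfrsf19.
Sp5: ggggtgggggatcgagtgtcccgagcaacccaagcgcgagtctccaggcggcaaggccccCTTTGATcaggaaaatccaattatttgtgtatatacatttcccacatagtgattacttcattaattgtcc
Tnfrsf19: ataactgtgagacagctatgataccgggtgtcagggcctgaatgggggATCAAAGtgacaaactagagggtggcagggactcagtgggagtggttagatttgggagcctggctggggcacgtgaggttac

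Hedgehog targets fell with the ligand. Gli1, whose transcription reports hedgehog signalling, read 661, 484, 656 and 557 in XY Ctr and 58.5, 7, 35.9 and 56.5 in XY Sox9KO, a fall by 3.58 ± 0.29 (limma adjusted p = 1.56e-11). Hhip, a decoy receptor induced by the pathway, read 568, 608, 621 and 558 against 73.4, 50.2, 25.6 and 35.1, a fall by 3.34 ± 0.22, and the receptor gene Ptch1 read 6283, 6405, 6401 and 6327 against 2265, 1945, 2194 and 1954, a fall by 1.6 ± 0.09. Control and knockout arrays did not overlap for any of the 3, and the Ptch1 knockouts stayed at 1945 or more. Gli2 fell by 1.1 ± 0.15, the co-receptor gene Boc rose by 0.85 ± 0.10, and Cdon and Gas1, the other co-receptor genes, differed by -0.08 ± 0.11 and 0.12 ± 0.10 without a call. Of 12 hedgehog pathway genes that passed the filter 2 rose, 6 fell and 4 were not called (median -0.39).

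Steroid synthesis genes of fetal Leydig cells mostly fell. Cyp11a1, which cuts cholesterol to pregnenolone, read 7629, 7766, 8268 and 7943 in XY Ctr and 13.2, 6.61, 4.44 and 38.5 in XY Sox9KO, a fall by 8.08 ± 0.31 (limma adjusted p = 4.04e-19). Cyp17a1, the next enzyme toward androgens, read 12393, 13188, 15238 and 11693 against 131, 117, 167 and 134, a fall by 6.43 ± 0.25. Hsd17b3, which makes testosterone from androstenedione and belongs to fetal Sertoli cells in mouse, read 2693, 2398, 2932 and 2600 against 5.45, 22.7, 8.39 and 33.7, a fall by 6.39 ± 0.25. For Cyp11a1 and Hsd17b3 the knockout arrays were at background, as were the XX Ctr arrays, at 16.8, 23.3, 58.4 and 26.3 for Cyp11a1 and 25.2, 18.6, 5.93 and 12.1 for Hsd17b3. Star, which carries cholesterol into mitochondria, read 4053, 3600, 4003 and 3711 against 387, 311, 268 and 248, a fall by 3.61 ± 0.12, and Hsd3b1 read 9916, 9453, 10426 and 9503 against 1417, 1632, 1987 and 1560, a fall by 2.57 ± 0.17. Both kept a measured signal in every knockout array. Fdx1, the electron donor of the mitochondrial enzymes, fell by 1.63 ± 0.11. Of 16 genes that passed the filter, out of 24 listed, 15 fell and 1 rose (median -2.70): Akr1c14, which inactivates androgens, rose by 2.13 ± 0.13, from 229 ± 13.9 to 1068 ± 169 (SD, n = 4). In these bulk samples, fewer cells of a type and less RNA per cell cannot be told apart.

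Genes of the adrenal cortex that the fetal testis also expresses were mostly part of the fall. Of 6 such genes that passed the filter 4 fell, 1 rose and 1 was not called (median -2.25). The gene that rose was Nr0b1, also named above with the Sertoli cell genes, by 0.79 ± 0.12. Cyp11b1, the last enzyme of corticosterone synthesis, read 522, 304, 471 and 442 in XY Ctr and 6.58, 7.9, 20.9 and 9.1 in XY Sox9KO, a fall by 4.06 ± 0.29. Cyp21a1 fell by 2.82 ± 0.37 and Mc2r, the ACTH receptor, by 1.92 ± 0.19, while Mrap, its accessory protein, differed by -0.14 ± 0.22 and was not called. The summed signal of the 6 adrenal genes that passed the filter ran from 10802 to 12011 in XY Ctr, from 2091 to 2747 in XY Sox9KO and from 1612 to 2372 in XX Ctr. Hsd3b1, also counted with the steroid synthesis genes above, made up most of each sum. It ran from 9453 to 10426 in XY Ctr and from 1417 to 1987 in XY Sox9KO, so the sum says little about the other members. Whether adrenal tissue was carried over was not tested.

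Most cholesterol synthesis and uptake genes fell. Of 21 genes, all of which passed the filter, 18 fell, 1 rose and 2 were not called (median -0.88). Scarb1, the receptor that takes up cholesterol from lipoproteins, fell by 2.02 ± 0.09, from 3723 ± 344 to 909 ± 118 (SD, n = 4). In the synthesis chain, Lss fell by 1.81 ± 0.08, Cyp51 by 1.68 ± 0.09, Dhcr7 by 1.66 ± 0.11, Fdps by 1.5 ± 0.14 and Sqle by 0.86 ± 0.09. Lipa and Npc2, which free and move cholesterol in lysosomes, differed by -0.05 ± 0.10 and -0.03 ± 0.06 and were not called.

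Most tested genes of interstitial progenitors and vascular patterning, a list that holds NOTCH genes, fell. Cxcl12, a chemokine, read 5203, 5023, 5420 and 5238 in XY Ctr and 699, 1064, 643 and 1028 in XY Sox9KO, a fall by 2.62 ± 0.17 (limma adjusted p = 7.13e-14). Jag1, a NOTCH ligand, read 2606, 2931, 2435 and 2779 against 466, 618, 585 and 638, a fall by 2.2 ± 0.11. The NOTCH receptor gene Notch3 and the target Heyl fell by 1.22 ± 0.12 and 2.07 ± 0.12, but Notch1 and the targets Hes1 and Hey1 differed by -0.23 ± 0.14, -0.02 ± 0.13 and -0.06 ± 0.11 and were not called. Pdgfra, a receptor that Leydig cell development needs, fell by 1.2 ± 0.11, Vcam1, an adhesion molecule, by 1.66 ± 0.17, and Nes, nestin, by 1.18 ± 0.10. Of 21 genes that passed the filter 15 fell, 2 rose and 4 were not called (median -0.71). Lgr5, named above with the WNT genes, is also in this list and was among the 2 that rose. Its rise by 3.58 ± 0.16 was larger than the fall of Cxcl12.

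Most peritubular myoid and smooth muscle genes fell. Acta2, smooth muscle actin, fell by 1.14 ± 0.12, from 6724, 7117, 7848 and 7238 in XY Ctr to 3021, 3203, 3063 and 3866 in XY Sox9KO. Tpm2, tropomyosin, fell by 1.12 ± 0.10 and Myocd, a coactivator of smooth muscle genes, by 1.17 ± 0.18. Myl9, a myosin light chain, rose by 1.08 ± 0.11 and was the exception among 12 genes, of which 10 fell and 1, Des, was not called at -0.09 ± 0.27 (median -0.83).

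Matrix genes were reduced and cell junction genes mixed. Vcan, versican, fell by 2.27 ± 0.12, Col4a4 by 2.07 ± 0.18, and Col4a1 and Col4a2, the collagen IV chains found in most basement membranes, by 0.91 ± 0.08 and 0.92 ± 0.09. Col4a1 read 12380, 13066, 13084 and 11080 in XY Ctr and 6368, 6047, 6379 and 7551 in XY Sox9KO, without overlap. Fn1, fibronectin, and Nid1, nidogen, fell by 0.74 ± 0.07 and 0.67 ± 0.05, while Lamc1, the laminin chain common to most laminins, differed by -0.13 ± 0.12 and was not called. Of 29 matrix genes that passed the filter 19 fell, 4 rose and 6 were not called (median -0.33). Of 21 junction genes 8 fell, 4 rose and 9 were not called (median -0.13). Among them Jam2 fell by 2.05 ± 0.17, Cdh1, E-cadherin, by 1.52 ± 0.37 and Gja1, connexin 43, by 0.58 ± 0.07, while Tjp1, the tight junction scaffold ZO-1, differed by 0.19 ± 0.09 without a call.

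**Figure D3:**
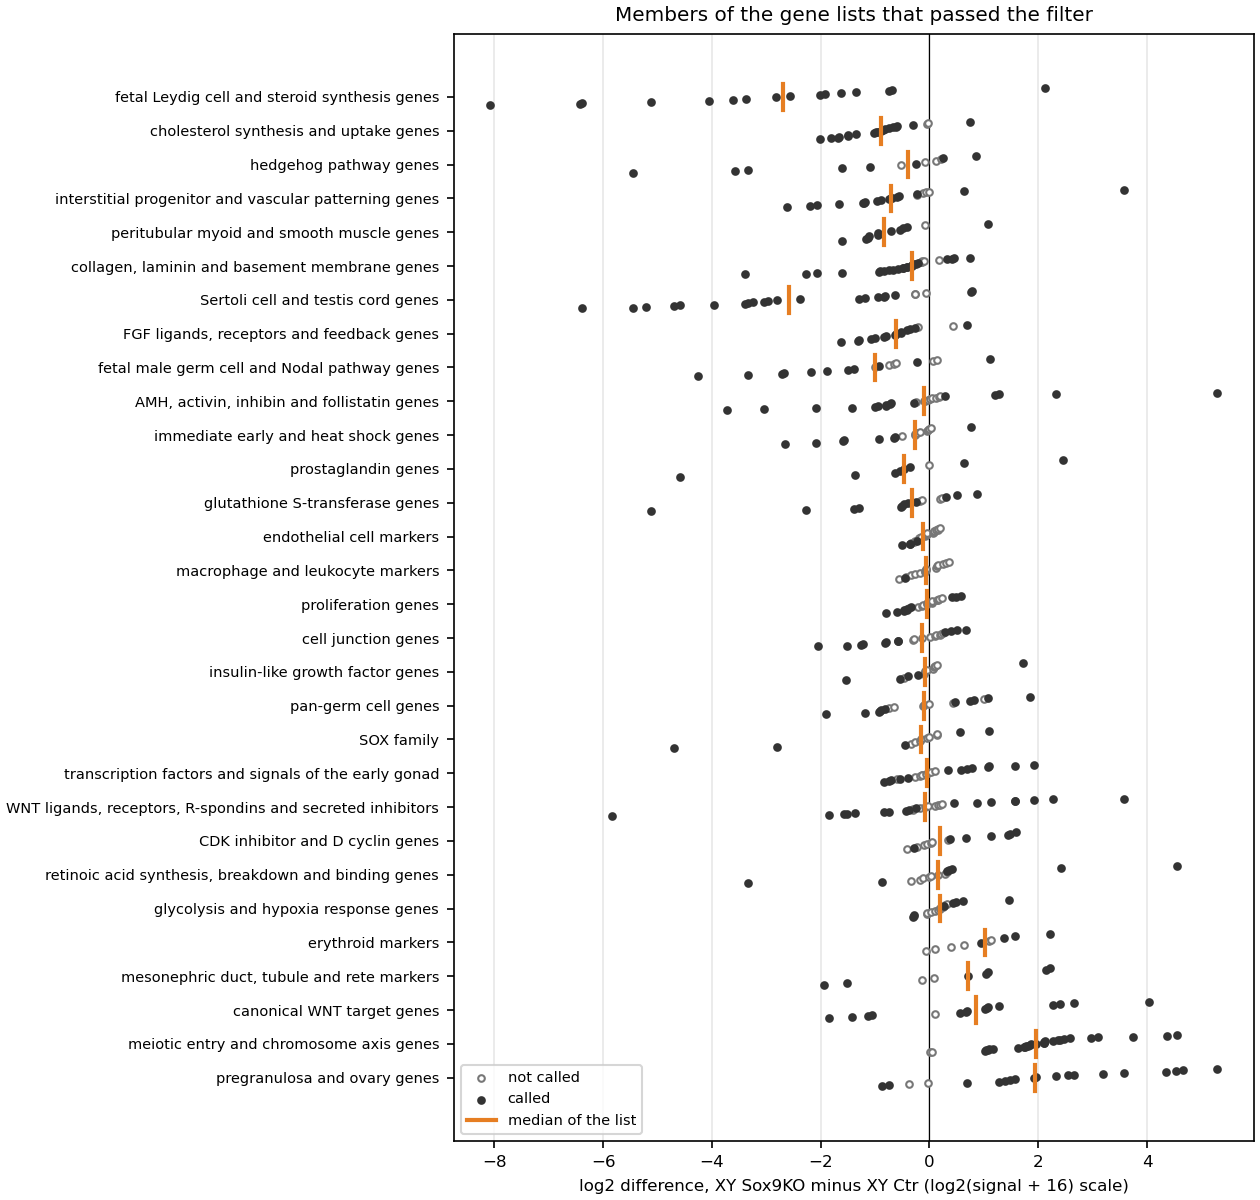
Each point is a gene that passed the filter, by its log2 difference, XY Sox9KO minus XY Ctr, in rows of gene lists. Filled points were called, open points were not, and orange bars are list medians, which run from -2.70 for steroid synthesis to 1.95 for meiosis genes. Some genes stand in more than 1 list.

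FGF signalling genes were lower. Of 17 genes that passed the filter 14 fell, 1 rose and 2 were not called (median -0.62). The feedback and target genes Etv5, Dusp6, Spry1 and Spry2 fell by 1.32 ± 0.20, 1.3 ± 0.15, 1.08 ± 0.23 and 0.53 ± 0.11. Dusp6, a phosphatase that ERK signalling induces, read 1128, 1144, 929 and 1230 in XY Ctr and 539, 477, 299 and 472 in XY Sox9KO. Fgfr2, the receptor through which FGF9 acts in the gonad, rose by 0.69 ± 0.10, from 2132 ± 105 to 3457 ± 321 (SD, n = 4), against the fall of its ligand.

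Among retinoid genes the degrading enzyme fell and a binding protein rose. Cyp26b1, which degrades retinoic acid in the fetal testis, read 756, 1115, 976 and 1151 in XY Ctr and 109, 67.6, 88.2 and 74.8 in XY Sox9KO, a fall by 3.33 ± 0.20 (limma adjusted p = 2.65e-14). XX Ctr read 57.9, 77.6, 121 and 86.9. Aldh1a2, the main synthesis enzyme, rose by 0.41 ± 0.09 and Dhrs3, a retinaldehyde reductase, by 0.37 ± 0.10. Aldh1a1, the retinaldehyde dehydrogenase named above, is also in this list and fell by 0.88 ± 0.07, from a mean of 7603 to 4146. Crabp1, a retinoic acid binding protein, rose by 2.41 ± 0.17, from 299, 384, 389 and 314 to 1632, 1562, 1906 and 2668. The receptor genes Rara and Rarg differed by 0.32 ± 0.27 and -0.34 ± 0.21 and were not called. Of 15 genes 5 rose, 2 fell and 8 were not called (median 0.17).

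Smaller signalling and enzyme families had single members that moved far. Among prostaglandin genes, beside Ptgds, the E2 receptor gene Ptger3 rose by 2.45 ± 0.20, from a mean of 39.5 near background to 291, and Ptger4 fell by 1.38 ± 0.14. Of 9 genes of that list 2 rose, 6 fell and 1 was not called (median -0.47). Among insulin-like growth factor genes Igfbp2 rose by 1.72 ± 0.13 and Igfbp3 fell by 1.54 ± 0.12, both carriers of IGF in tissue fluid, and Igf1r fell by 0.54 ± 0.07. In that list of 14 genes, 9 were not called, 4 fell and 1 rose (median -0.09). This share of 35.7% called was near the 38.7% of all genes tested. Among glutathione S-transferase genes Gsta2 read 2074, 1474, 1878 and 1985 in XY Ctr and 23.9, 40.7, 42.3 and 44.1 in XY Sox9KO, a fall by 5.13 ± 0.20, and Gsta3, Gsta4 and Mgst2 fell by 2.27 ± 0.17, 1.39 ± 0.10 and 1.3 ± 0.20, while Mgst3 rose by 0.88 ± 0.15. Of 16 such genes 9 fell, 3 rose and 4 were not called (median -0.32), and related members can share probe sequence.

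Meiosis genes rose. Of 34 genes of meiotic entry and the chromosome axis 30 were on the array and 29 passed the filter, of which 27 rose, 0 fell and 2 were not called (median 1.95). Stra8, the retinoic acid target that licenses meiosis, read 284, 213, 257 and 165 in XY Ctr and 5395, 4940, 5743 and 6632 in XY Sox9KO, a rise by 4.55 ± 0.32 (limma adjusted p = 8.09e-13). Rec8, the meiotic cohesin, read 211, 219, 190.0 and 176 against 2648, 3086, 2705 and 3045, a rise by 3.75 ± 0.16, and Meioc, which holds germ cells in meiotic prophase, read 75.1, 51.7, 76.5 and 109 against 1786, 1922, 2115 and 1736, a rise by 4.37 ± 0.30. No knockout array overlapped a control array for the 3 genes. Smc1b, another cohesin chain, read 431, 788, 825 and 427 in XY Ctr and 4024, 3824, 6631 and 7011 in XY Sox9KO, a rise by 3.1 ± 0.34, with knockout replicates 3 and 4 above replicates 1 and 2. The summed signal of the 29 genes was likewise higher in knockout replicates 3 and 4, at 40800, 38257, 59630 and 58569, against 11678 to 13730 in XY Ctr and 41114 to 70556 in XX Ctr. Syce1 and Stag3, of the synaptonemal complex and the chromosome axis, rose by 2.58 ± 0.32 and 1.86 ± 0.21, and Sycp3, named after its values were seen, by 1.81 ± 0.36. Mnd1 and Psmc3ip, a pair that assists strand exchange, differed by 0.0 ± 0.18 and 0.05 ± 0.11 and were not called.

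Most genes of the fetal male germ line that were tested fell. Lefty2, a target and antagonist of NODAL signalling, read 1450, 1786, 1856 and 1498 in XY Ctr and 69.7, 92.2, 62.6 and 62.4 in XY Sox9KO, a fall by 4.25 ± 0.16 (limma adjusted p = 2.83e-19). Lefty1 read 95.8, 314, 198 and 92.3 against 40.0, 4.97, 5.36 and 2.74, a fall by 2.71 ± 0.32, and Nodal, the ligand, read 241, 362, 279 and 127 against 76, 110.0, 64.4 and 54, a fall by 1.49 ± 0.25. Lefty1 varied widely within the controls. Its knockout arrays were at or near background, with replicate 1 the highest at 40.0. Tdgf1, the NODAL co-receptor, fell by 2.67 ± 0.36, and Morc1 and Tdrd5, which act in transposon silencing and the piRNA pathway, by 2.18 ± 0.42 and 1.39 ± 0.21. Zbtb16 rose by 1.12 ± 0.18. Of 17 genes that passed the filter 10 fell, 1 rose and 6 were not called (median -1.01).

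Genes that germ cells of both sexes express did not shift one way. Of 18, 5 rose, 6 fell and 7 were not called (median -0.11). Dppa4, a pluripotency gene, fell by 1.9 ± 0.39 and Tdrd1 by 0.91 ± 0.22, while Kit, the receptor for stem cell factor, rose by 0.83 ± 0.26 and Mov10l1, a piRNA helicase gene, by 1.08 ± 0.32. Mael, a nuage protein gene, differed by 0.43 ± 0.27 and was not called. Their summed signal ran from 25755 to 33793 in XY Ctr and from 24867 to 30403 in XY Sox9KO.

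The CIP/KIP cell cycle inhibitor genes rose. Cdkn1a, Cdkn1b and Cdkn1c, which block cyclin-dependent kinases, rose by 1.58 ± 0.14, 1.49 ± 0.11 and 1.44 ± 0.13. Cdkn1b read 1690, 1540, 1521 and 2109 in XY Ctr and 5001, 5458, 4517 and 4281 in XY Sox9KO, and Cdkn1c read 2365, 3172, 2694 and 2544 against 7385, 7023, 7503 and 7319, without overlap. Cdkn2c, an inhibitor of the INK4 family, differed by -0.41 ± 0.17 and was not called, but was called without XY Ctr or XY Sox9KO replicate 3 (limma adjusted p = 0.0437 and 0.0468) and in a fit on the compared arrays alone (limma adjusted p = 0.0242). Cdk6, a partner of cyclin D, rose by 1.14 ± 0.11. Of 14 inhibitor, cyclin D and RB genes 6 rose, 1 fell and 7 were not called (median 0.19). The share called was 50%, beside 38.7% of all genes tested. Of 23 proliferation genes 3 rose, 7 fell and 13 were not called (median -0.05), a share of 43.5% called beside 38.7% of all genes tested. Aurkb, a mitotic kinase, was lower by 0.79 ± 0.16 and Ccna2, cyclin A2, was not called at -0.21 ± 0.11.

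Markers of other cell types were read for changes in makeup. Of 24 endothelial markers 4 fell, 0 rose and 20 were not called (median -0.12), so 16.7% were called, beside 38.7% of all genes tested. Their summed signal ran from 14632 to 16106 in XY Ctr and from 12783 to 13112 in XX Ctr. In XY Sox9KO it was 12714, 14102, 13380 and 16102, and only replicate 4 reached the range of XY Ctr. Efnb2, an arterial ligand gene, fell by 0.36 ± 0.08 and Nrp1, a VEGF co-receptor, by 0.51 ± 0.14. Of 16 macrophage and leukocyte markers 1 fell and 15 were not called, with sums of 6607 to 8757 in XY Ctr and 7110 to 7680 in XY Sox9KO. Of 10 erythroid markers 4 rose and 6 were not called (median 1.02), so 40% were called, beside 38.7% of all genes tested. Klf1, a red cell transcription factor, read 114, 141, 277 and 177 in XY Ctr and 797, 680.0, 985 and 924 in XY Sox9KO, a rise by 2.21 ± 0.46, and 1503, 539, 705 and 204 in XX Ctr. Gata1 rose by 1.58 ± 0.36. The erythroid sum overlapped at 13882 to 22772 and 18569 to 29260. The part of blood cells in other results was not tested.

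Epithelial markers listed for the mesonephros split. Krt8 and Krt18, paired keratins, read 444 ± 85 and 568 ± 106 in XY Ctr and 2117 ± 390.0 and 2552 ± 248 in XY Sox9KO (SD, n = 4), rises by 2.21 ± 0.16 and 2.15 ± 0.12. Lhx1, a factor of the mesonephric duct and tubules, fell by 1.95 ± 0.29, from 189, 294, 257 and 158 to 59.7, 69.2, 27.9 and 32. Epcam, an epithelial surface protein, differed by 0.08 ± 0.27 and was not called. Of 9 markers that passed the filter 5 rose, 2 fell and 2 were not called (median 0.71), and 5 of 14 on the array were below the filter. Their summed signal ran from 4101 to 5882 in XY Ctr, from 9184 to 10102 in XY Sox9KO and from 8566 to 9152 in XX Ctr. Its largest parts in XY Sox9KO were Krt18, Krt8 and Emx2, the last with a mean of 2383 and also listed with the early gonad above. The part of mesonephric tissue in these values was not tested.

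Immediate early and heat shock genes, which also respond to handling of tissue, were lower or not called in XY Sox9KO with 1 exception among 17, of which 7 fell, 1 rose and 9 were not called (median -0.27). The share called was 47.1%, beside 38.7% of all genes tested. The exception was Fos, an immediate early gene, which rose by 0.76 ± 0.25 (limma adjusted p = 0.0171). It read 31.2, 17.9, 44.6 and 61.6 in XY Ctr and 96.3, 58.8, 55.6 and 88.4 in XY Sox9KO, low signals that overlapped. Hspa1b read 1495, 1622, 1488 and 2144 in XY Ctr and 223, 313, 231 and 241 in XY Sox9KO, a fall by 2.66 ± 0.19, with 384, 298, 165 and 282 in XX Ctr. Hspa1a, its near-identical neighbour, fell by 2.08 ± 0.21, and the 2 may share probe sequence. Egr1, a growth factor response gene, read 1538, 1636, 1798 and 1498 against 559, 598, 472 and 476, a fall by 1.59 ± 0.12, and Nr4a1 fell by 1.57 ± 0.17. Ier2 differed by -0.26 ± 0.21 and was not called. Their summed signal ran from 42719 to 45331 in XY Ctr and from 36093 to 39011 in XY Sox9KO. Whether handling differed between the groups was not tested. Among 18 glycolysis and hypoxia genes 5 rose, 2 fell and 11 were not called (median 0.19). That is 38.9% called, beside 38.7% of all genes tested. Adm, adrenomedullin, rose by 1.46 ± 0.17 and Ldha, lactate dehydrogenase A, by 0.62 ± 0.09.

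The largest changes included genes outside these lists. Among falls, Ccl17, a chemokine, read 1762, 989, 1799 and 1476 in XY Ctr and 22.7, 8.97, 15.3 and 11.3 in XY Sox9KO, a fall by 5.62 ± 0.32. Cbln1, cerebellin 1, read 5261, 5135, 6127 and 5685 against 180.0, 190.0, 107 and 178, a fall by 4.98 ± 0.22. Nts, neurotensin, fell by 4.69 ± 0.29, Pmaip1, the cell death protein NOXA, by 4.85 ± 0.25, Adh1, alcohol dehydrogenase 1, by 4.59 ± 0.18 and Mmd2 by 4.42 ± 0.22. The knockout arrays of Nts and Pmaip1 were all at 32.4 or lower. Among rises, Calb1, a calcium-binding protein, read 10.6, 1.25, 4.04 and 12.7 in XY Ctr and 824, 761, 1069 and 801 in XY Sox9KO, a rise by 5.27 ± 0.26 from background. Ablim3, an actin-binding protein gene, rose by 4.29 ± 0.33, and Foxl2os, an RNA transcribed opposite Foxl2, by 3.83 ± 0.20. Signals of such a pair may not be separable. Tex101, a germ cell surface protein, rose by 3.36 ± 0.52, with knockout values of 1230, 963, 2418 and 2521 in which replicates 3 and 4 were again the higher. Rhox9, an X-linked homeobox gene, rose by 3.23 ± 0.30, to 1303, 1214, 864 and 1314 against 1203, 2298, 1829 and 2739 in XX Ctr.

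The same change of Sox9 genotype in XX gonads gave no call. Between XX Sox9KO and XX Ctr limma called 0 of 11779 genes (0%), with 537 at an unadjusted p under 0.05. Sox9 itself, low in XX Ctr, differed there by -1.38 ± 0.44 without a call. Without XX Ctr replicate 2, Sox9 was the 1 gene called, lower by 2.03 (limma adjusted p = 0.0367), and 1 gene was called without XX Sox9KO replicate 3. The difference of the 2 effects was tested as an interaction, 4 arrays in each of 4 groups, and 2750 genes were called (23.3%), 1491 more positive (12.7%) and 1259 more negative (10.7%) in XY gonads. Fst differed by 0.11 ± 0.13 in XX gonads, and the effect in XY gonads exceeded that by 5.19 ± 0.18 (limma adjusted p = 1.26e-19). The Cst9 effect was 0.13 ± 0.14 in XX gonads and the interaction -5.35 ± 0.20. Tnfrsf19, Irx3 and Foxl2 gave interactions of 3.84 ± 0.13, 4.86 ± 0.23 and 4.63 ± 0.22, and Dhh, Star and Defb19 gave -5.41 ± 0.24, -3.55 ± 0.17 and -3.29 ± 0.15.

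Other genes with the smallest adjusted p-values of that test were not in the lists. Hao2, a peroxisomal oxidase gene, read 1631 ± 106 in XY Ctr and 96.6 ± 10.6 in XY Sox9KO (SD, n = 4), with an interaction of -4.34 ± 0.25. Prokr2, a prokineticin receptor, read 826 ± 45.3 and 30.6 ± 18, with -4.87 ± 0.32, and Smoc2, a matrix protein, read 1141 ± 101 and 86.1 ± 3.01, with -4.35 ± 0.29. Alas1, the first enzyme of heme synthesis, Stox2 and Thbd, thrombomodulin, had interactions of -2.11 ± 0.13, -2.23 ± 0.14 and -2.87 ± 0.18. Insyn2b and Lrrn1 rose in XY Sox9KO, from 15.6 to 369 and from 467 to 3362 in mean signal, with interactions of 3.71 ± 0.25 and 2.78 ± 0.18. In XX gonads these 8 genes differed by -0.09 ± 0.10 for Stox2 to 0.85 ± 0.20 for Smoc2, and none was called.

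Few genes were called between XY gonads without Sox9 and control ovaries. Between XY Sox9KO and XX Ctr limma called 74 genes (0.628%), 52 higher (0.441%) and 22 lower (0.187%) in XY Sox9KO, and 6 differed at least 2-fold. Those 6 were Eif2s3y, Uba1y, Kdm5d, Uty and Sry, all Y-linked, higher by 6.97 ± 0.19, 6.93 ± 0.25, 5.58 ± 0.23, 3.9 ± 0.23 and 1.13 ± 0.19, and Xist, the RNA of the inactive X chromosome, lower at -6.83 ± 0.80. All 5 Y-linked genes tested were called. Of 401 X-linked genes 15 were called (3.74%), 14 lower and 1 higher, and of 11320 autosomal genes 54 (0.477%), 46 higher and 8 lower, none differing by more than 0.66. Among X-linked genes Kdm6a, a histone demethylase that escapes X inactivation, was lower at -0.7 ± 0.11. Fst, Foxl2, Cst9 and Star differed by 0.03 ± 0.13, -0.08 ± 0.15, -0.09 ± 0.14 and 0.04 ± 0.12 and were not called. Wnt4 was 0.45 ± 0.11 (limma adjusted p = 0.0546), with knockouts at 1872, 2056, 1931 and 2278 above XX Ctr at 1525, 1550, 1284 and 1602, and it was called without XX Ctr replicate 4 or XY Sox9KO replicate 1 (limma adjusted p = 0.0393 and 0.0457).

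The count of 74 moved with single arrays. It was 8 without XX Ctr replicate 3, 9 without XY Sox9KO replicate 4, 13 without XX Ctr replicate 2, 27 without XX Ctr replicate 1 and 36 without XY Sox9KO replicate 3. It was 228 without XX Ctr replicate 4, 215 without XY Sox9KO replicate 2 and 162 without XY Sox9KO replicate 1. Alg9, a mannosyltransferase gene, was the autosomal gene among 8 that were called in the full set and without each of the 8 arrays, at 0.66 ± 0.10 with 460.0 ± 43.9 in XX Ctr and 738 ± 62.8 in XY Sox9KO (SD, n = 4). The other 7 were the 5 Y-linked genes, Xist and Kdm6a. Alg9 and Kdm6a lost their calls in a fit on the arrays of these 2 groups alone (limma adjusted p = 0.0898 for both), and Alg9 was not called with the mean of its probe sets, at 0.31 (limma adjusted p = 0.171). At an unadjusted p under 0.05 there were 2140 genes, and a missing call does not show equal expression.

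**Figure D4:**
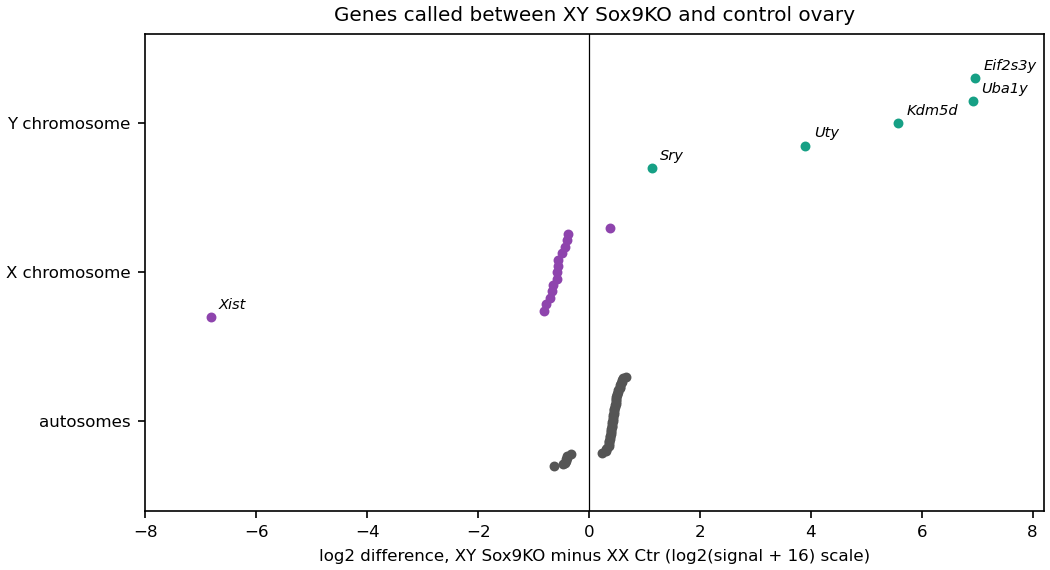
Points are the 74 genes called between XY Sox9KO and XX Ctr, by log2 difference (XY Sox9KO minus XX Ctr), in rows for autosomes, the X and the Y chromosome, and names are given beyond a difference of 1. The Y-linked genes and Xist lie outside the range of the autosomal genes, which stay within 0.66 of 0.

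The effect of Sox9 loss differed where both Ctnnb1 alleles were floxed. Ctnnb1 signal itself averaged 13247 ± 497 (SD, n = 4) in XY Ctnnb1KO and 12486 ± 1239 (SD, n = 3) in XY DKO. XY Ctr averaged 12798 ± 470.0 (SD, n = 4), so loss of Ctnnb1 is known here from the stated genotype and not from this signal. Against XY Ctnnb1KO, XY DKO gonads (3 arrays) had 1650 genes called (14%), 904 higher (7.67%) and 746 lower (6.33%). The difference between the 2 effects of Sox9 loss was called for 1152 genes (9.78%), 622 more positive (5.28%) and 530 more negative (4.5%) with both Ctnnb1 alleles floxed. Lefty2 averaged 1512 ± 240.0 (SD, n = 4) in XY Ctnnb1KO and 2311 ± 664 (SD, n = 3) in XY DKO, a rise by 0.58 ± 0.17, against a fall by 4.25 ± 0.16 with 1 floxed allele, and the difference was 4.83 ± 0.23 (limma adjusted p = 4.26e-15). Nodal rose by 1.01 ± 0.27 there and fell by 1.49 ± 0.25 with 1 floxed allele, a difference of 2.51 ± 0.36. The rise of Lefty2 lost its call without XY Ctnnb1KO replicate 3 or XY DKO replicate 2 or 3 (limma adjusted p = 0.0747, 0.127 and 0.194) and with the arrays of those 2 groups alone (limma adjusted p = 0.0808), and that of Nodal without XY Ctnnb1KO replicate 1 or XY DKO replicate 3 (limma adjusted p = 0.0501 and 0.0616), while the differences between the effects kept theirs. Inhba averaged 2288 and 1740, at -0.37 ± 0.16 and not called, and Hsd17b3 2377 and 1442, at -0.73 ± 0.27 and not called, with differences of 3.36 ± 0.21 and 5.67 ± 0.37.

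Falls of several steroid and Sertoli cell genes were smaller there. Cyp11a1 averaged 8396 in XY Ctnnb1KO and 2665 in XY DKO, and its effect differed by 6.44 ± 0.45 (limma adjusted p = 1.33e-11). Dhh and Gsta2 averaged 436 and 848 in XY DKO, with differences of 3.27 ± 0.25 and 3.97 ± 0.29. Amh averaged 179 and 16.3, and its difference of 0.45 ± 0.55 was not called. Sox9 itself gave 0.45 ± 0.64, not called.

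Rises of several ovary genes were smaller too. Fst averaged 89.9 in XY Ctnnb1KO and 307 in XY DKO, a rise by 1.62 ± 0.14 against 5.29 ± 0.13, and the difference was -3.67 ± 0.19 (limma adjusted p = 6.71e-15). Tnfrsf19, Irx3 and Calb1 gave differences of -2.44 ± 0.13, -2.67 ± 0.24 and -4.31 ± 0.38. Wnt4 averaged 746 and 720.0 and was not called there at -0.05 ± 0.12, with a difference of -1.61 ± 0.17, whereas Rspo1 rose by 2.37 ± 0.11 there and its difference of 0.45 ± 0.15 was not called (limma adjusted p = 0.0515). Foxl2 rose by 3.15 ± 0.17, to 542, with a difference of -1.38 ± 0.23. Of the WNT targets with a TCF/LEF match, Tnfrsf19 thus differed between the effects, while Sp5 rose by 2.06 ± 0.33 and its difference of -0.33 ± 0.45 was not called. Among meiosis genes Rec8 gave a difference of -2.2 ± 0.23, and Stra8 one of -1.36 ± 0.47 that was not called (limma adjusted p = 0.0672). Without XY DKO replicate 3 the differences of Rspo1 and Stra8 were called, at 0.52 and -1.83 (limma adjusted p = 0.0384 and 0.0087), and that of Rspo1 also without XY Sox9KO replicate 1 or 3 (limma adjusted p = 0.0475 and 0.0419). With a pseudocount of 64 both were called (limma adjusted p = 0.0453 for Rspo1 and 0.0346 for Stra8), and Rspo1 also with the mean of its probe sets (limma adjusted p = 0.0479).

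Some genes outside the lists were called on Sox9 loss with 1 floxed Ctnnb1 allele and not with both floxed. Cbln4, cerebellin 4, Sstr4, a somatostatin receptor, and Pcsk5, a proprotein convertase, fell by 3.28 ± 0.18, 2.4 ± 0.16 and 2.05 ± 0.13 and differed by -0.24 ± 0.20, -0.09 ± 0.17 and -0.3 ± 0.14 between XY DKO and XY Ctnnb1KO. Dlx3, a homeobox gene, and Thbs2, thrombospondin 2, rose by 3.35 ± 0.26 and 1.97 ± 0.15 and differed by -0.17 ± 0.28 and -0.38 ± 0.17 there. Akr1cl fell by 1.1 ± 0.09 and differed by 0.18 ± 0.10. These 6 differences in the effect, from -3.52 ± 0.38 to 3.04 ± 0.27, were called. Plxnc1, a semaphorin receptor gene, fell by 0.83 ± 0.11 and rose by 0.79 ± 0.12, and Gstm6 fell by 0.39 ± 0.11 and by 2.76 ± 0.12, so that it changed more with both Ctnnb1 alleles floxed.

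**Figure D5:**
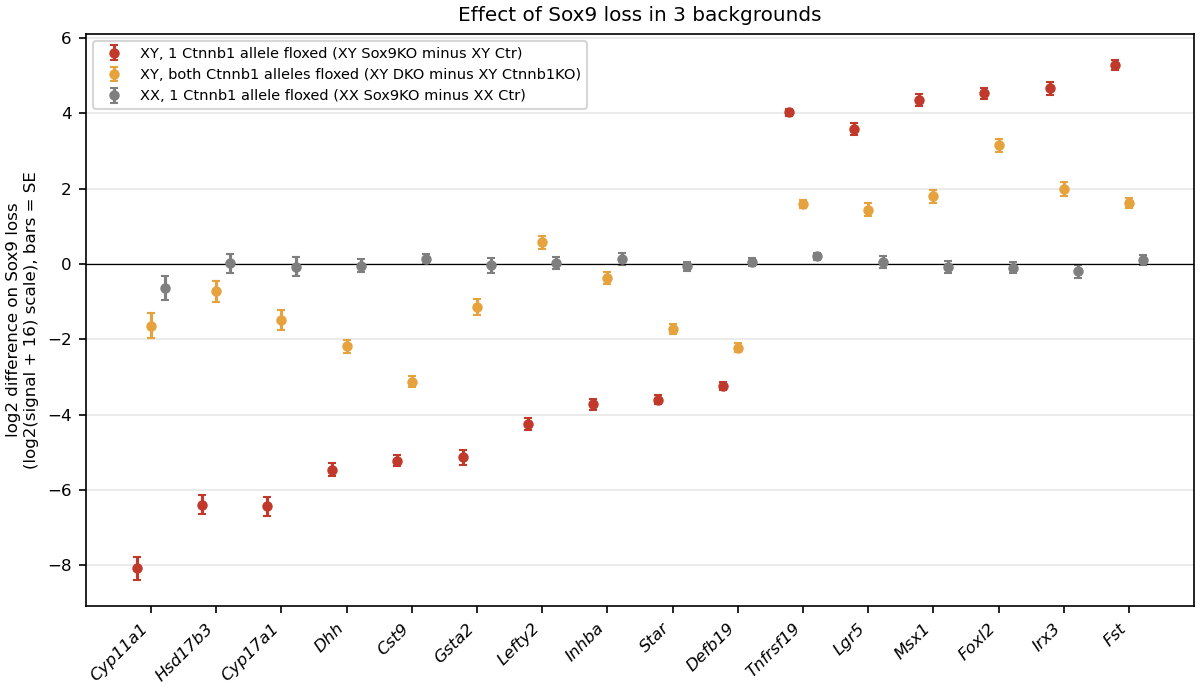
Points are log2 differences on Sox9 loss with SE bars for 16 genes, in XY gonads with 1 floxed Ctnnb1 allele (red), XY gonads with both floxed (orange) and XX gonads (grey). The orange point lies between the red and the grey one for each gene except Lefty2, where it lies above both at 0.58 ± 0.17.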

How the data were processed

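RNA of gonad pairs at embryonic day 14.5 was hybridised to 31 single-colour arrays of 45101 probe sets, 8 of which are XY Ctr and XY Sox9KO. The deposited values are signal intensity on a linear scale, which the authors computed in MAS5 per the submitters' processing notes. The 2% trimmed mean of every array is 500, so arrays were already scaled. The 64 control probe sets were left out, 34945 probe sets carried 1 gene symbol, 932 several and 9160 none, and 34741 of the first kind matched a RefSeq gene. Where 1 of the 18193 genes had several probe sets, the brightest on average stood for it, and 11779 passed a filter (above the own array's median on at least 3 arrays).

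With limma 3.58.1 in R 4.3.3, 8 group means were fitted to log2(signal + 16) with an eBayes trend (23 residual degrees of freedom), and p-values were adjusted by Benjamini-Hochberg over all 11779 genes. Nothing in the labels says which embryos were littermates. In simulated data for this comparison of 4 against 4 arrays (11779 genes, with known changes), 61.2% of 67 genes changed 1.5-fold, 88.1% of 67 changed 2-fold and 98.5% of 66 changed 4-fold were recovered, and 13 of 178 calls were false. Only these 67, 67 and 66 genes changed there, with normal noise around 1 mean per gene for all groups. In the real comparison 4558 genes were called, so these rates need not hold for it. The number of arrays limits the precision.

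Members and gene lists were chosen with earlier results of these data known. Genes were named by rule: at most 8 called genes per list, those of lowest adjusted p, and at most 4 uncalled ones, the 15 largest rises and 15 largest falls among called genes with non-overlapping arrays and a mean signal above the median, and 8 genes per further comparison by adjusted p. Sox10, Fgf9, Wt1 and Sycp3 were added after their values were seen. Results were recomputed without the filter, after quantile normalization, with a pseudocount of 1 or 64, with the compared arrays alone, with the replicate number as a block, with the mean of a gene's probe sets, without the trend, and without each array.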

Additional observations from a re-analysis of the deposited data

Results flagged for a closer look

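Within the 4 arrays of XY Ctr or XY Sox9KO, 17 of 412 sets of values held an array whose gap to the nearest other exceeded Dixon's 95% critical value as a share of the range, or 4.13%. Chance alone gives about 1 in 20. XY Ctr replicate 2 gave 5 of the 17: Dmrt1 at 867 against 695 to 710 in the other controls, Morc1 at 91.8 against 265 to 320, Mov10l1 at 280.0 against 484 to 502, Npc2 at 7799 against 8317 to 8427 and Xist at 61.2 against 81.8 to 83.2. XY Sox9KO replicate 4 gave 4: Ptgds at 554 against 266 to 282, Gata4 at 2694 against 2256 to 2310, Wnt9a at 436 against 555 to 574 and Prokr2 at 4.14 against 34.0 to 42.4. XY Ctr replicate 1 was high for Gja1 at 10869, Msx1 at 68.5 and Nr5a1 at 2649. XY Sox9KO replicate 1 was low for Gsta2 at 23.9 and high for Lefty1 at 40.0, XY Sox9KO replicate 3 was low for Cbln1 at 107, and XY Ctr replicate 4 was high for Insyn2b at 28.1 and Smoc2 at 1292.

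The effect of Sox9 loss differed between XY and XX gonads, tested as an interaction, for 2750 genes, and by 5.19 for Fst, 4.86 for Irx3, 4.63 for Foxl2, 3.84 for Tnfrsf19, -5.41 for Dhh, -5.35 for Cst9, -3.55 for Star and -3.29 for Defb19 (log2). It differed between XY gonads with both and with 1 floxed Ctnnb1 allele for 1152 genes, and by 6.44 for Cyp11a1, 5.67 for Hsd17b3, 4.83 for Lefty2, 3.97 for Gsta2, 3.36 for Inhba, -3.67 for Fst, -2.44 for Tnfrsf19 and -2.37 for Gstm6.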

How the results depend on the processing

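The count of 4558 genes in XY Sox9KO against XY Ctr stayed between 4373 (compared arrays alone) and 5037 (no filter) over 8 alternatives and between 3953 and 4501 without single arrays (2281 to 2600 higher, 1659 to 1901 lower). Without single arrays, the difference between XY and XX gonads ranged from 2391 to 2849 genes, that between Ctnnb1 genotypes from 962 to 1274, XY DKO against XY Ctnnb1KO from 1105 to 1799, and XX Sox9KO against XX Ctr from 0 to 1. XY Sox9KO against XX Ctr, with 74 genes, moved most: 38 with no trend, 30 with no filter, 7 with the compared arrays alone, and 8 to 228 without single arrays. The cause was not tested. Alternatives for the counts of XX Sox9KO against XX Ctr and XY DKO against XY Ctnnb1KO, and for single genes outside XY Sox9KO against XY Ctr, were chosen after seeing the data.

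Of 173 named genes called in XY Sox9KO against XY Ctr, 170 were called in every alternative that tested them, Alg9, Kdm6a and Uba1y being the exceptions, and of the 33 named genes that were not called, Cdkn2c became called. No called value changed its sign. The 16 genes named for the difference between XY and XX gonads and the 16 called ones for that between Ctnnb1 genotypes were called in every alternative that tested them. Most called genes were named for a low adjusted p or a large change in these same data. The choice thus favoured their staying called, which says little about other genes. Hsd17b3 and Pcsk5 became called in XY DKO against XY Ctnnb1KO under 1 or more alternatives, at -0.73 (compared arrays alone) and -0.43 (mean of probe sets), Nodal lost its call there with the mean of probe sets, at 0.30, and Lefty2 with the compared arrays alone, at 0.58. Against XX Ctr, Alg9 lost its call with the mean of probe sets, at 0.31.

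Same-numbered arrays of XY Ctr and XY Sox9KO deviated with correlations of 0.07, 0.06, -0.02 and -0.13, and those of XX Ctr and XY Sox9KO with 0.05, 0.23, 0.29 and 0.15, above 0.1 for 3 of the 4 pairs. By the rule that every pair exceed 0.1 the numbers were not taken as pairs. With the replicate number as a block 4515 genes were called in XY Sox9KO against XY Ctr, 2705 between XY and XX gonads, 1142 between Ctnnb1 genotypes and 69 against XX Ctr. The block moved Stra8 between Ctnnb1 genotypes (-1.41, limma adjusted p = 0.0253) and Wnt4 against XX Ctr (0.45, limma adjusted p = 0.0498) past the threshold, as did a pseudocount of 64, which also moved Rspo1 between Ctnnb1 genotypes (0.45, limma adjusted p = 0.0453). Signals near background have only a bound, and fold changes of genes that are low in 1 group are understated by the pseudocount of 16.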
